A study of Mus musculus with 6 samples.

Results

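The genes described here are 7 transcription factors that act in hair follicle stem and progenitor cells, namely Trps1, Runx1, Nfatc1, Lhx2, Sox9, Tcf7l1 and Tcf7l2. They were chosen with earlier results of these data known and taken by gene symbol from the 24453 symbols that were counted. All 7 passed the filter on low counts that left 14700 genes for testing. RNA was sequenced from back skin epidermis of newborn mice at postnatal day 0. There were 3 Eed cKO libraries, whose genotype is labelled Eed-/-, and 3 Control libraries. Cells were sorted for EpCAM, Sca1 and high α6-integrin, a gate for interfollicular epidermis rich in progenitors. The follicle factors were therefore measured in a population chosen to lie mainly outside the follicle. Transcripts of the follicle keratins Krt71 and Krt79 were still counted in every Control library, and the share of follicle cells was not measured. Not given in the sources used here are the strain, the Cre driver, the deleted exons, the genotype of the Control mice beyond that word and the number of mice behind a library. P-values therefore measure the spread between libraries, which may be technical in part.

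Hair follicles and the interfollicular epidermis arise from a common sheet of embryonic progenitors, and the adult follicle keeps stem cells in a niche called the bulge. Polycomb repressive complex 2, of which EED is a core subunit, methylates histone H3 on a lysine of its tail and so keeps many developmental genes silent. The 7 factors work at different steps of the follicle lineage. TRPS1 is a GATA-type zinc-finger repressor, RUNX1 binds DNA with its partner CBF-beta and promotes stem cell activation, and NFATC1 is driven by calcineurin and holds bulge cells quiescent. LHX2 is a LIM homeodomain factor and SOX9 an HMG-box factor of follicle progenitors, while TCF7L1 and TCF7L2 are HMG-box partners of beta-catenin that repress Wnt targets when it is absent.

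Total counts ran from 20998149 to 27447679 in Eed cKO libraries and from 25481306 to 29998531 in Control libraries, and the members had between 155 and 5867 counts in a library. Eed itself had 37.0, 33.7 and 29.2 counts in every 1000000 of a library (CPM) in Eed cKO libraries 1, 2 and 3, against 45.1, 41.1 and 53.1 CPM in Control libraries 1, 2 and 3. The change was -0.48 ± 0.19 on the log2 scale (SE, with an adjusted p of 0.252 in edgeR's quasi-likelihood test), so the count over the whole gene was lower in each Eed cKO library without passing. The keratinocyte and sort markers Krt5, Krt14, Trp63, Itgb4, Epcam, Ly6a and Itga6 were all detected in both groups, with summed levels of 26030 to 34690 CPM in Eed cKO libraries and 29040 to 35770 CPM in Control libraries. Of them Epcam, a protein of the sort, rose to 140 ± 17.4 CPM in Eed cKO, against 82.1 ± 20.4 CPM in Control (SD, n = 3 each; edgeR adjusted p 0.0433), a call lost in 4 of the 6 fits without 1 library (up to 0.171).

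Of the 7 factors, Trps1, Runx1 and Nfatc1 rose in Eed cKO epidermis, none fell and 4 did not pass an adjusted p of 0.05 in edgeR's quasi-likelihood test. Over all 14700 genes 3.39% were called higher and 0.816% lower. Between groups, 5 members had every Eed cKO library above every Control library and 1 member had every Eed cKO library below, while the ranges of Tcf7l1 overlapped. Over all tested genes, 11.0% had ranges apart with Eed cKO higher and 9.22% with Eed cKO lower. The median log2 fold change was 0.99 over the members and -0.01 over all tested genes. Because the members were chosen with earlier results of these data known, these shares and medians are a description and no test of the set. For 1 gene taken alone, an exact permutation of 3 against 3 libraries cannot give a two-sided p under 0.1.

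**Figure D1:**
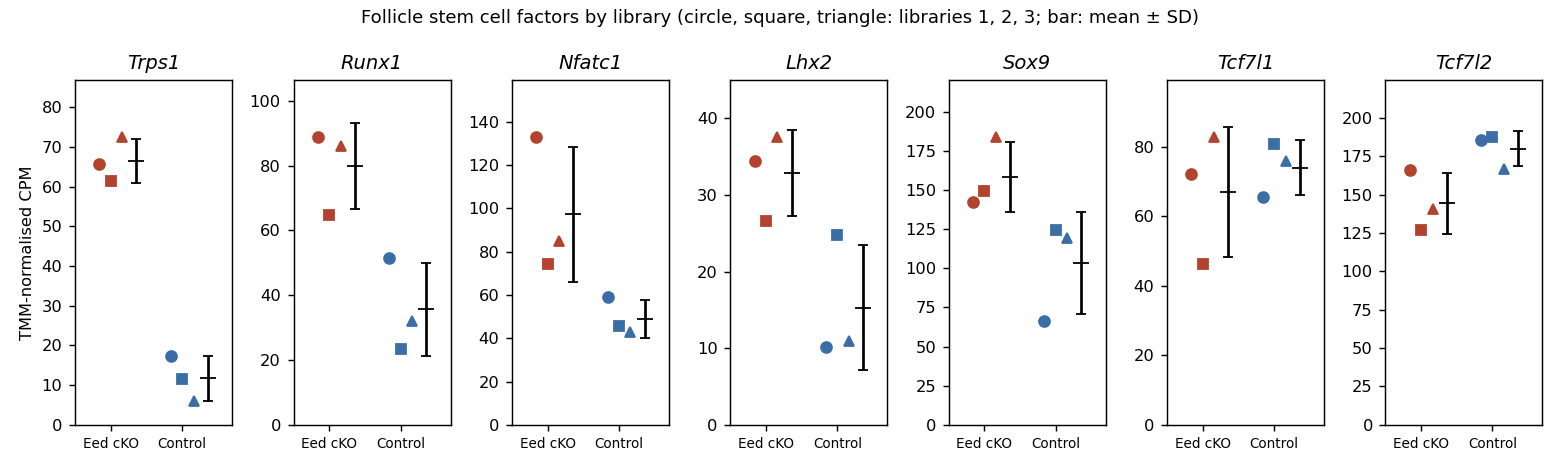
Each panel plots TMM-normalised CPM of 1 factor on a linear axis from 0, with Eed cKO libraries in red on the left and Control libraries in blue on the right. Points are single libraries and black bars are the mean ± SD of 3. Trps1 lies between 61.3 and 72.4 CPM in Eed cKO libraries and between 6.05 and 17.4 CPM in Control libraries, while the Tcf7l1 ranges overlap.

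Trps1 changed most among the members. It lies on chromosome 15 from 50654752 to 50890463 on the minus strand (GRCm38), and in humans its loss causes a syndrome with sparse hair. Trps1 had 65.7, 61.3 and 72.4 CPM in Eed cKO libraries 1, 2 and 3, against 17.4, 11.5 and 6.05 CPM in Control libraries 1, 2 and 3. All 3 Eed cKO libraries were close together, and the lowest of them stood 43.9 CPM above the highest Control library. Its log2 fold change reached 2.51 ± 0.31 (SE, 95% interval 1.85 to 3.17, edgeR adjusted p 0.000263), and the ratio of the group means was 5.7. By p-value Trps1 ranked 63rd of the 14700 tested genes, and by size of the rise 272nd. Leaving out any 1 of the 6 libraries kept the call, with log2 fold changes of 2.20 without Control 3 to 2.91 without Control 1. The spread differed between groups, with a coefficient of variation of 8.4% in Eed cKO libraries and 48.8% in Control libraries.

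Runx1 rose as well. It lies on chromosome 16 from 92601466 to 92826149 on the minus strand, and 106 of its 12025 exonic bases are shared with Gm26626 on the other strand. Runx1 had 88.8, 64.8 and 86.1 CPM in Eed cKO libraries 1, 2 and 3, against 51.5, 23.5 and 32.0 CPM in Control libraries 1, 2 and 3. The lowest Eed cKO library was 13.3 CPM above Control 1, which was the highest Control library. On the log2 scale Runx1 was higher by 1.17 ± 0.26 (SE, 95% interval 0.61 to 1.72, edgeR adjusted p 0.0195). The call was lost without Control 2 (edgeR adjusted p 0.0597), Control 3 (0.0938), Eed cKO 1 (0.0514) or Eed cKO 3 (0.0924), and the adjusted p ran from 3.4e-05 to 0.0938 over the 15 alternatives. The log2 fold change stayed between 0.95 and 1.52 when 1 library was left out.

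Runx1 is known to be transcribed from a distal and a proximal promoter, and counts per gene do not separate transcripts of these starts. They are shown, each as the 250 bases before the start in the RefSeq annotation of GRCm38.p6 and read 5′ to 3′ on the gene's strand, because the called gene has starts of opposite base composition. Capitals mark the CG pairs.
Runx1 distal start, chr16:92826075-92826324, minus strand: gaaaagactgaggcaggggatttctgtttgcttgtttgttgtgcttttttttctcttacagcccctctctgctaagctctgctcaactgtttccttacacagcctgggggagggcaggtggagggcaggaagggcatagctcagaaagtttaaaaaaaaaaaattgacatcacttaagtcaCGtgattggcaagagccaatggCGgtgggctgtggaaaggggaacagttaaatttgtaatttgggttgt
Runx1 proximal start, chr16:92697330-92697579, minus strand: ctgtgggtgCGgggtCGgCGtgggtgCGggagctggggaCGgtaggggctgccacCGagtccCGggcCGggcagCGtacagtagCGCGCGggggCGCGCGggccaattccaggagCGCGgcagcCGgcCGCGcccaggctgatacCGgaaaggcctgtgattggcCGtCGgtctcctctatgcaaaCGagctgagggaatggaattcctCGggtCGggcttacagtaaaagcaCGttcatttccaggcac
The distal window held 2 CG pairs and the proximal window 27, against a median of 6 over the 32851 promoter windows of the same length. The distal window thus had more CG pairs than 18.8% of those windows and the proximal one more than 91.4%. RefSeq windows were used for 4 members, Runx1, Lhx2, Tcf7l1 and Tcf7l2.

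Nfatc1, the calcineurin-dependent factor of quiescent bulge cells, was the third gene called. It lies on chromosome 18 from 80606205 to 80713071 on the minus strand. Nfatc1 had 133, 74.2 and 84.8 CPM in Eed cKO libraries 1, 2 and 3, against 59.1, 45.5 and 42.7 CPM in Control libraries 1, 2 and 3. Eed cKO 1 stood well above the other libraries of its group, and the lowest Eed cKO library was 15.1 CPM above the highest Control library. Nfatc1 was higher by 0.99 ± 0.23 on the log2 scale (SE, 95% interval 0.50 to 1.48, edgeR adjusted p 0.0249). Without Eed cKO 1 it was 0.69 and the call was lost (edgeR adjusted p 0.0870), and the call was also lost without Control 2 (0.0801), Control 3 (0.126) or Eed cKO 3 (0.0579). The adjusted p of Nfatc1 ran from 0.000285 to 0.126 over the 15 alternatives.

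Runx1 and Nfatc1 are also expressed in blood and vessel cells, whose markers varied between libraries. The summed level of 7 immune cell markers was 279, 44.3 and 90.9 CPM in Eed cKO libraries 1, 2 and 3, against 377, 99.4 and 181 CPM in Control libraries 1, 2 and 3. Of these markers Cd207 and Cd3g were at 0 in all Eed cKO libraries and near the floor in Control. In Control libraries 1, 2 and 3, Cd207 had 8, 1 and 0 counts and Cd3g had 1, 0 and 0 counts. The sum of 5 endothelial markers was 33.6, 5.94 and 8.18 CPM in Eed cKO libraries, against 28.9, 4.99 and 34.8 CPM in Control libraries. Both libraries numbered 1 had the highest immune sums of their groups and the highest Nfatc1 and Runx1 levels of their groups. Without both of them, a choice made after seeing the data, the log2 fold changes were 1.45 for Runx1 (edgeR adjusted p 0.00309), 0.85 for Nfatc1 (0.0321) and 2.93 for Trps1 (7.32e-05). Both libraries were picked on these same levels, so this fit is a description and cannot test a part of other cells. Control 3, with the highest endothelial sum, stayed in it. The part of immune and endothelial cells in the levels of Runx1 and Nfatc1 was not tested. In bulk RNA, fewer cells of a type and less RNA per cell cannot be told apart.

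Lhx2 and Sox9 were higher in every Eed cKO library than in any Control library but did not pass the test. Lhx2, on chromosome 2 from 38339281 to 38369733, had 34.4, 26.7 and 37.5 CPM in Eed cKO libraries 1, 2 and 3, against 10.2, 24.7 and 10.9 CPM in Control libraries 1, 2 and 3. Control 2 was far above the other Control libraries and only 1.92 CPM under the lowest Eed cKO library. The log2 fold change of Lhx2 was 1.10 ± 0.31 (SE, 95% interval 0.43 to 1.78, edgeR adjusted p 0.0722). Without Control 2 it was 1.65 and was called (edgeR adjusted p 0.00356), and over the 15 alternatives the adjusted p ran from 0.00284 to 0.257. DESeq2 (adjusted p 0.0145) and limma-voom (0.0402) called Lhx2 with all libraries.

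Sox9 had the highest mean level per length of the members in both groups, though in Control its range overlapped that of Tcf7l2. It lies on chromosome 11 from 112782224 to 112787760 on the plus strand. Sox9 had 142, 149 and 184 CPM in Eed cKO libraries 1, 2 and 3, against 66.1, 125 and 120 CPM in Control libraries 1, 2 and 3. Control 1 was the low library, and the lowest Eed cKO library stood 17.6 CPM above the highest Control library. The log2 fold change of Sox9 was 0.61 ± 0.22 (SE, 95% interval 0.14 to 1.09, edgeR adjusted p 0.177), and without Control 1 it was 0.37 (0.375), with 0.0273 to 0.487 over the 15 alternatives.

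**Figure D2:**
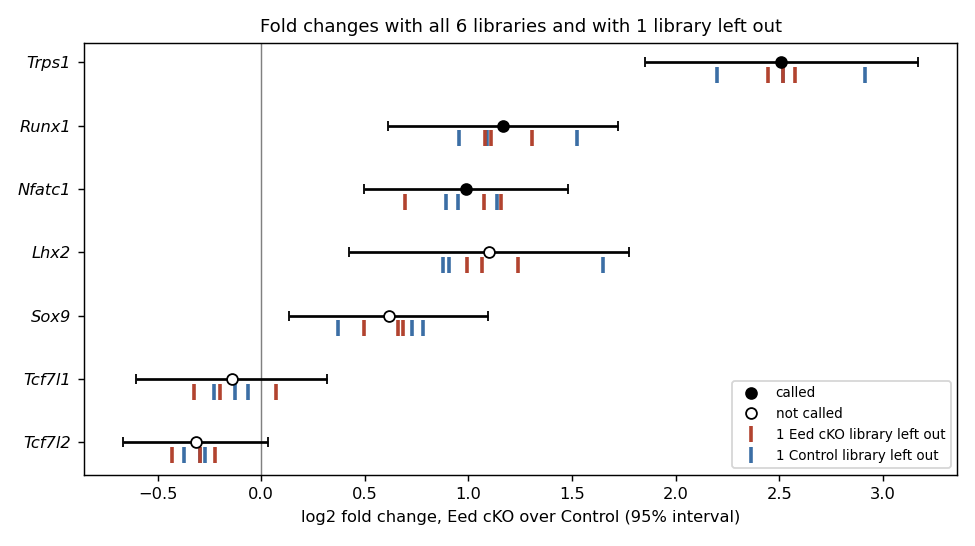
Circles give the log2 fold change of each factor, Eed cKO over Control, with its 95% interval, filled where called. Ticks give the same value with 1 Eed cKO library (red) or 1 Control library (blue) left out. Trps1 stays between 2.20 and 2.91, and Tcf7l1 has 1 tick to the right of 0.

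The TCF factors did not follow the other members. Tcf7l1, on chromosome 6 from 72626378 to 72789254 with 179 of its 3924 exonic bases shared with Gm15401 on the other strand, had 72.0, 46.4 and 82.7 CPM in Eed cKO libraries 1, 2 and 3, against 65.4, 80.8 and 75.9 CPM in Control libraries 1, 2 and 3. Eed cKO 2 was the lowest library of all and Eed cKO 3 the highest, so the groups overlapped. For Tcf7l1 the log2 fold change was -0.14 ± 0.21 (SE, 95% interval -0.60 to 0.32, edgeR adjusted p 0.853), and without Eed cKO 2 it was 0.072.

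Tcf7l2, on chromosome 19 from 55741820 to 55933654, was the only member below Control in every Eed cKO library. It had 166, 127 and 141 CPM in Eed cKO libraries 1, 2 and 3, against 186, 187 and 167 CPM in Control libraries 1, 2 and 3. The highest Eed cKO library was 0.579 CPM below the lowest Control library, so the ranges barely parted. Its log2 fold change came to -0.32 ± 0.16 (SE, 95% interval -0.67 to 0.03, edgeR adjusted p 0.403), with adjusted p of 0.231 to 0.737 over the 15 alternatives, none of which called it.

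The windows before the first RefSeq starts of Lhx2 and Tcf7l2, members that were not called, are shown on the plus strand for comparison with Runx1, again with CG pairs in capitals.
Lhx2 first start, chr2:38339031-38339280, plus strand: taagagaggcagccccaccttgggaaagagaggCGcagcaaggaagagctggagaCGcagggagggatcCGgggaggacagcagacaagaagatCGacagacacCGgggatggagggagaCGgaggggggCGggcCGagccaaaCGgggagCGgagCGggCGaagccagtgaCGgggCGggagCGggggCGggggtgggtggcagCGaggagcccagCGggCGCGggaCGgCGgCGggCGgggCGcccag
Tcf7l2 first start, chr19:55741560-55741809, plus strand: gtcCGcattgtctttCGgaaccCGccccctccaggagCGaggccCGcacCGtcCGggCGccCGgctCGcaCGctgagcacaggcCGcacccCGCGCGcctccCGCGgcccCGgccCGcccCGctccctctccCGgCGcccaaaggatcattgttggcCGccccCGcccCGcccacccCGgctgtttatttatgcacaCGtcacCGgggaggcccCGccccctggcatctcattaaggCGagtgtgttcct
The Lhx2 window held 25 CG pairs and the Tcf7l2 window 30, and the single Tcf7l1 window held 29, against 27 and 2 in the windows of Runx1, the only called member with windows used here. A later window of Lhx2, not printed, held 24 CG pairs and a later window of Tcf7l2 held 7, so Tcf7l2 also had windows far apart in CG pairs. The printed windows were searched on both strands for 6-letter words bound by these families, none of which is part of another. The RUNX word TGTGGT was found in 14.0% of all windows and the SOX word ACAATG was found in 10.7%. The TCF/LEF word CTTTGA was found in 13.8% of all windows and the LIM homeodomain word TAATTA in 4.84%. The GATA word AGATAA was found in 9.99% of all windows and the NFAT word GGAAAA was found in 20.4%. Among the 4 printed windows only that of Tcf7l2 held a word, with 2 matches to ACAATG on the opposite strand.

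Tcf7l1 and Tcf7l2 share their DNA site with Tcf7 and Lef1, so the makeup of the family was set out per length of annotated exon. That length joins all annotated exons of a gene, whichever transcripts are in use. Shares and orders between genes therefore depend on it. Tcf7l2 made up 19.4%, 20.5% and 19.6% of the summed CPM per kb of these 4 genes in Eed cKO libraries 1, 2 and 3, against 20.9%, 21.2% and 21.1% in Control libraries. Lef1, the TCF/LEF factor of hair differentiation, made up 41.8%, 43.7% and 41.2% in Eed cKO libraries, against 48.2%, 51.9% and 46.5% in Control libraries. Both shares were lower in each Eed cKO library than in any Control library (exact permutation p 0.1 each, two-sided, the smallest that 3 against 3 can give). The shares are parts of 1 sum, so a rise in 1 share lowers the others. Lef1 itself had 358, 271 and 297 CPM in Eed cKO libraries, against 429, 459 and 369 CPM in Control libraries (edgeR adjusted p 0.194).
Tcf7 took 17.6% ± 3.52 in Eed cKO and 10.7% ± 3.95 in Control (SD, n = 3 each, exact permutation p 0.2), and Tcf7l1 took 20.4% ± 4.68 and 19.4% ± 2.63 (SD, exact permutation p 0.8). The ratio of Tcf7l2 to Tcf7l1 CPM was 2.25 ± 0.518 in Eed cKO and 2.45 ± 0.339 in Control (SD, exact permutation p 0.6). The summed level of the 4 genes was 83.4 ± 13.6 CPM per kb in Eed cKO and 97.4 ± 6.28 CPM per kb in Control (SD, exact permutation p 0.2). Over these 6 measures the smallest Benjamini-Hochberg adjusted permutation p was 0.3.

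**Figure D3:**
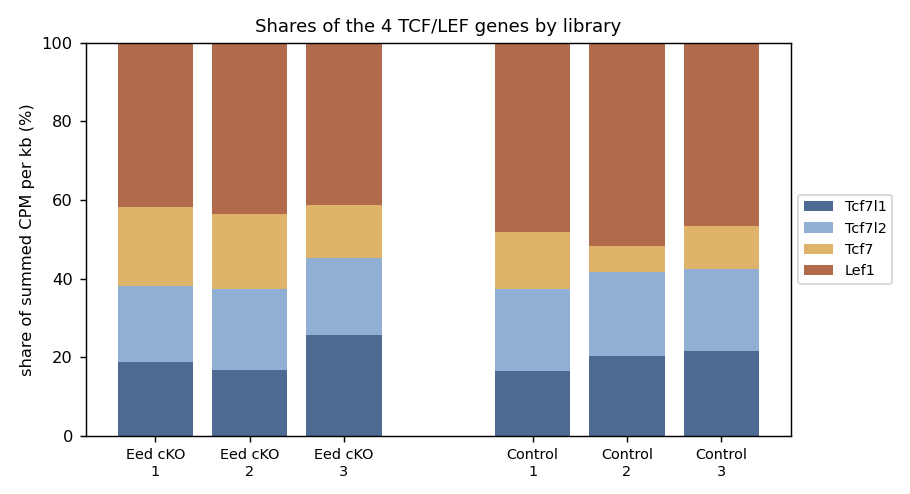
Stacked bars give each library's shares of summed CPM per kb of exon among Tcf7l1, Tcf7l2, Tcf7 and Lef1, with Eed cKO libraries left and Control libraries right. Lef1 fills 41.2% to 43.7% in Eed cKO libraries and 46.5% to 51.9% in Control libraries.

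Per kb of exon, Sox9 averaged 38.3 ± 5.37 CPM in Eed cKO and 25.0 ± 7.83 CPM in Control (SD, n = 3 each), above 94.0% and 88.8% of the 14382 tested genes with 1 annotated length. Trps1 was the lowest member in both groups, at 4.97 ± 0.417 CPM per kb in Eed cKO and 0.872 ± 0.425 in Control, above 51.5% and 21.0% of those genes. Without division by length, Trps1 averaged 66.5 CPM in Eed cKO, above Lhx2 at 32.9 CPM. In Control it stayed the lowest member, at 11.7 CPM. Per kb, the order in Eed cKO was Sox9, Tcf7l1, Tcf7l2, Nfatc1, Lhx2, Runx1 and Trps1. In that order only Sox9 and Tcf7l1, and Nfatc1 and Lhx2, were neighbours with ranges apart. Per kb, the order in Control was Sox9, Tcf7l2, Tcf7l1, Nfatc1, Lhx2, Runx1 and Trps1. There the neighbours with ranges apart were Tcf7l1 and Nfatc1, Nfatc1 and Lhx2, and Runx1 and Trps1.

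**Figure D4:**
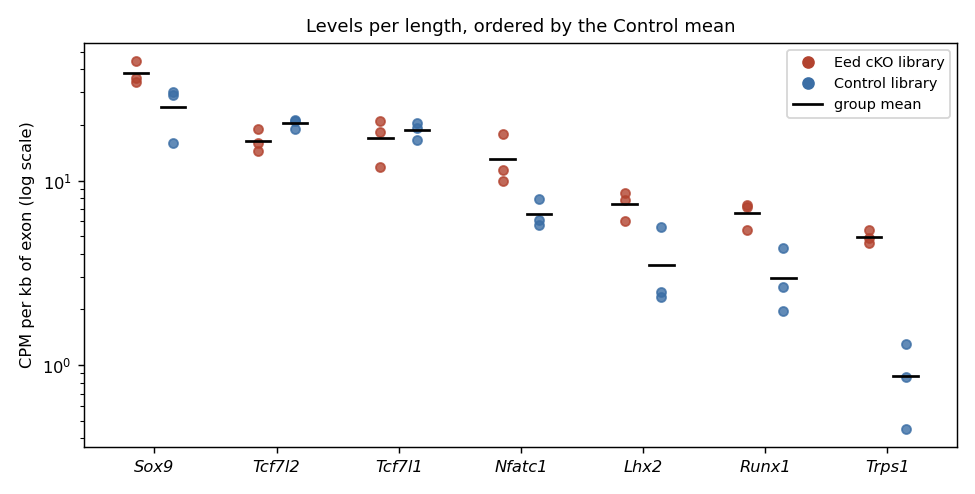
Points give CPM per kb of exon on a log axis, 1 per library, with Eed cKO (red) left of Control (blue) and black lines at the group means. Factors are ordered by the Control mean, from Sox9 at 25.0 to Trps1 at 0.872 CPM per kb. The Trps1 groups are farthest apart.

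For each called member the 3 tested genes with the nearest profile were found among 10273 genes at a mean of at least 5 CPM. Nearness was the Euclidean distance over 6 libraries between log2 CPM values centred on the Control mean, so a profile is near when its change between groups and its order of libraries are alike. For Trps1 they included Pdzrn4 (distance 0.60) and Msrb3 (0.80), for Nfatc1 they included Abhd6 (0.34) and Tshz2 (0.36), and for Runx1 they were the neurotrophin receptor gene Ntrk2 (0.24), Tspan17 (0.40) and the imprinted zinc-finger gene Plagl1 (0.43). Pdzrn4, Msrb3, Tshz2 and Plagl1 were called higher, while Abhd6 (edgeR adjusted p 0.0801), Ntrk2 (0.0912) and Tspan17 (0.242) did not pass. All were picked for a like change, so their values are a description.

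Partners and paralogs of the factors were read from lists chosen by role, with earlier results of these data known. There were 98 genes in 7 lists. Of these, 87 were tested, 8 were called higher and 2 lower. Over all 14700 genes tested, 3.39% were called higher and 0.816% lower, the shares to set beside the counts of each list. Sox2, Gata4, Gata6 and Tbx1, 4 of the 8, passed the filter on low counts through the Eed cKO group alone and so had to differ, and their values are given as a description. Among 14 TCF/LEF factors, beta-catenin and co-regulators, none rose and 1 fell (median log2 fold change -0.09). DESeq2 called 1 higher, the co-repressor gene Tle1 (adjusted p 0.0297), and 2 lower, Bcl9 (0.00715) and Aes (0.0450), and Tle1 was also called by edgeR without Eed cKO 1 (adjusted p 0.0329). The gene that fell was Bcl9, which links beta-catenin to Pygopus, with 211, 176 and 208 CPM in Eed cKO libraries 1, 2 and 3, against 314, 327 and 267 CPM in Control libraries. On the log2 scale it fell by 0.61 ± 0.16 (SE, edgeR adjusted p 0.0463), and the call was lost in each of the 6 fits that leave out 1 library (up to 0.196) and with upper-quartile scaling (0.0572). Beta-catenin itself, Ctnnb1, had 1403 ± 276 CPM in Eed cKO and 1254 ± 56.9 CPM in Control (SD, n = 3 each; edgeR adjusted p 0.759).

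Of 13 NFAT and calcineurin genes 11 were tested and 0 were called, with 3 at an unadjusted p under 0.05 (median log2 fold change 0.23). Rcan1, an inhibitor of calcineurin that NFAT is known to induce, had 170, 149 and 125 CPM in Eed cKO libraries, against 101, 125 and 92.7 CPM in Control libraries (log2 fold change 0.47, edgeR adjusted p 0.203). Nfatc3, another NFAT factor, had 329, 271 and 370 CPM in Eed cKO libraries, against 438, 406 and 412 CPM in Control libraries (-0.37, edgeR adjusted p 0.283). Of 6 RUNX partners 0 were called, with 2 at an unadjusted p under 0.05. These were the co-repressor gene Cbfa2t3, at 14.1, 8.51 and 15.6 CPM in Eed cKO libraries against 7.52, 3.87 and 2.07 CPM in Control libraries (edgeR adjusted p 0.0788), and Runx2. Runx2, the bone factor, had 16.2, 11.1 and 15.4 CPM in Eed cKO libraries, against 11.4, 2.81 and 1.76 CPM in Control libraries (edgeR adjusted p 0.202). Without both libraries numbered 1, a choice made after seeing the data, Cbfa2t3 (edgeR adjusted p 0.0288) and Runx2 (0.00411) were called higher. DESeq2 and limma-voom each called 0 of the NFAT list and 1 of the RUNX list, Cbfa2t3 in DESeq2 (adjusted p 0.0122) and Runx2 in limma-voom (0.0425).

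Of 18 SOX genes 13 were tested, 2 rose and 1 fell. Sox7, a factor of vessels and endoderm, had 65.2, 28.8 and 52.7 CPM in Eed cKO libraries 1, 2 and 3, against 17.8, 7.73 and 8.04 CPM in Control libraries. On the log2 scale Sox7 was higher by 2.13 ± 0.35 (SE, edgeR adjusted p 0.00298). The part of vessel cells in the Sox7 counts was not tested. Sox6, which lacks an activation domain and can oppose other SOX factors, had 126, 221 and 211 CPM in Eed cKO libraries, against 418, 326 and 358 CPM in Control libraries. Sox6 fell by 0.98 ± 0.21 on the log2 scale (SE, edgeR adjusted p 0.0142). Sox2, the Merkel lineage factor, had 185, 22 and 31 counts in Eed cKO libraries and 0 in each Control library, at least 90.8-fold higher against 3 counts over the Control group. Sox2 was uneven, with most counts in Eed cKO 1. The 4 Merkel cell markers summed to 2.48, 3.93 and 5.37 CPM in Eed cKO libraries, against 0.337, 1.82 and 0.195 CPM in Control libraries. Each Eed cKO sum was above every Control sum, and Eed cKO 1 had the lowest sum of its group. Atoh1 was at 0 in Control libraries. The part of Merkel cells in the Sox2 counts was not tested. Leaving out any 1 library kept the calls of Sox6 and Sox7.

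LHX2 acts with LIM-domain binding proteins, and of 11 such genes 10 were tested and 0 called, with 3 at an unadjusted p under 0.05 (median log2 fold change -0.13). Lhx9, the closest LHX2 paralog, had 59, 39 and 22 counts in Eed cKO libraries, against 0, 0 and 5 counts in Control libraries (edgeR adjusted p 0.0552), and it too passed the filter through the Eed cKO group alone. Ssbp2, a partner of LDB proteins, had 63.8, 54.7 and 67.0 CPM in Eed cKO libraries, against 73.3, 100 and 81.2 CPM in Control libraries (edgeR adjusted p 0.240). DESeq2 (adjusted p 0.00444) and limma-voom (0.0327) called Lhx9 alone of this list.

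Of 6 GATA factors, whose DNA site TRPS1 can occupy, 4 were tested and 2 rose, both nearly silent in Control. Gata4 had 40.1, 20.2 and 28.1 CPM in Eed cKO libraries, against 3 counts over the Control group, a ratio of 834 (exact 95% counting interval 285 to 4050). Gata6 had 22.7, 14.1 and 29.2 CPM in Eed cKO libraries, against 0.0374, 0.16 and 0 CPM in Control libraries. Gata3, the GATA factor of epidermis and inner root sheath, had 266 ± 37.2 CPM in Eed cKO and 279 ± 27.8 CPM in Control (SD, n = 3 each; edgeR adjusted p 0.927).

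Among 30 other genes of follicle stem and progenitor cells 29 were tested, 4 rose, 0 fell and 25 did not pass (median log2 fold change 0.10). In 8 of the 29 every Eed cKO library lay above every Control library, and in 7 every Eed cKO library lay below. Such ranges were found in 11.0% and 9.22% of all tested genes. DESeq2 called 7 of the list higher and 1 lower, Nfib (adjusted p 0.0235), and with low counts left unfiltered edgeR called 8 higher. The genes that rose were Ctgf, Dkk3, Hmga2 and Tbx1. Ctgf, a matricellular YAP target found in bulge cells, had 34.4, 25.1 and 29.1 CPM in Eed cKO libraries, against 10.1, 3.90 and 4.69 CPM in Control libraries (log2 fold change 2.25 ± 0.34 SE, edgeR adjusted p 0.00146), a call kept whichever library was left out. Dkk3, a secreted Dickkopf family protein, had 79.1, 73.9 and 89.6 CPM in Eed cKO libraries, against 30.4, 34.5 and 58.1 CPM in Control libraries (edgeR adjusted p 0.0291). Hmga2, a chromatin architectural factor, had 51.0, 68.4 and 52.9 CPM in Eed cKO libraries, against 23.9, 39.2 and 26.4 CPM in Control libraries (edgeR adjusted p 0.0291).
Tbx1, a T-box factor, had 21, 46 and 21 counts in Eed cKO libraries and 3, 0 and 1 counts in Control libraries. The Tbx1 call was lost in each of the 6 fits that leave out 1 library (up to 0.232). Dkk3 was called without Control 3 but in no other such fit (up to 0.138), and Hmga2 in 2 of 6 (up to 0.151). Without both libraries numbered 1 the list had 1 call, Ctgf. Genes of bulge and other follicle stem cells that did not pass lay on both sides of Control. Hopx, a homeodomain-only protein gene, averaged 29.0 ± 5.35 CPM in Eed cKO and 16.4 ± 1.79 CPM in Control (SD, n = 3 each; edgeR adjusted p 0.0559). The forkhead factor gene Foxc1 had 18.7, 22.2 and 47.6 CPM in Eed cKO libraries, against 13.9, 17.7 and 10.7 CPM in Control libraries (edgeR adjusted p 0.103). Both had ranges apart and were called in DESeq2 (adjusted p 0.0130 for Hopx and 0.0301 for Foxc1). Cd34 had 3.57, 0.722 and 2.28 CPM in Eed cKO libraries, against 3.03, 1.47 and 3.24 CPM in Control libraries, and Lgr5 had 0.474, 1.28 and 1.60 CPM in Eed cKO libraries, against 2.99, 1.28 and 0.937 CPM in Control libraries. Krt15, which also marks newborn basal epidermis, had 2568, 2782 and 1769 CPM in Eed cKO libraries, against 2794, 2938 and 3441 CPM in Control libraries (edgeR adjusted p 0.394).

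**Figure D5:**
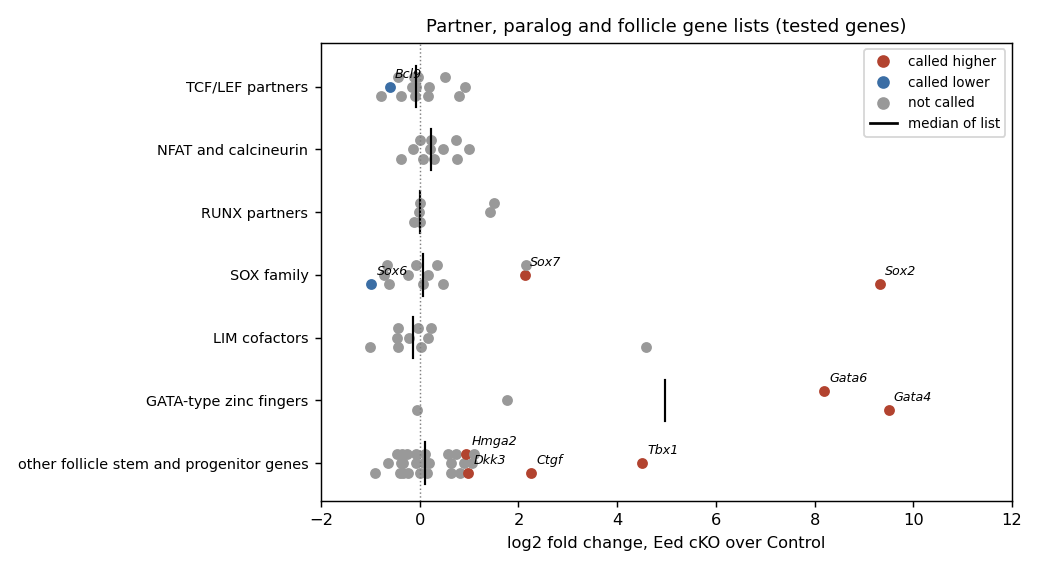
Each point is the log2 fold change, Eed cKO over Control, of 1 tested gene, by list, with called genes coloured and named and a black line at the median of the list. Of 87 tested genes 8 are called higher and 2 lower. The fitted value of Sox2, which had no Control count, depends on the prior count of the fit.

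Markers of other compartments were summed in each library to stand beside these results. Suprabasal markers (6 of 7 listed were measured) summed to 4307 to 7442 CPM in Eed cKO libraries and 2629 to 3575 CPM in Control libraries, so the groups did not overlap. The spinous keratin Krt10 alone was called among them, at 2018 ± 441 CPM in Eed cKO and 847 ± 96.0 CPM in Control (SD, n = 3 each; edgeR adjusted p 0.00126). Differentiating follicle markers summed to 516.5 to 667 CPM in Eed cKO libraries and 392 to 678 CPM in Control libraries. Krt17 made up most of that sum, at 510 ± 75.6 CPM in Eed cKO and 467 ± 139 CPM in Control (SD, n = 3 each). Of the 11 tested, 4 had a positive log2 fold change. In 3 every Eed cKO library lay below every Control library, as in 9.22% of all tested genes. These were Krt71, Krt25 (-1.81, edgeR adjusted p 0.147) and Krt27 (-2.59, edgeR adjusted p 0.101). Within these markers the infundibulum keratin Krt79 rose to 55.7 ± 5.47 CPM in Eed cKO, against 7.55 ± 1.74 CPM in Control (SD, n = 3 each; edgeR adjusted p 5.74e-06), and the inner root sheath keratin Krt71 fell to 1.54 ± 0.974 CPM in Eed cKO, against 7.93 ± 5.02 CPM in Control (0.0495).
The call of Krt71 was lost in 4 of the 6 fits that leave out 1 library (up to 0.284). Fibroblast markers summed to 566 to 649.5 CPM in Eed cKO libraries and 386 to 579 CPM in Control libraries, and melanocyte markers to 10.8 to 18.9 CPM in Eed cKO libraries and 8.63 to 25.5 CPM in Control libraries. The part of any of these compartments in the rises of Trps1, Runx1 and Nfatc1 was not tested.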

How the data were processed

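Each library has 1 deposited file of raw, unscaled counts by gene symbol. The build mm10 and the tools HTSeq 0.6.1, TopHat2 2.0.13, DESeq2 1.6.3 and Cufflinks 2.2.1 appear in the submitters' processing notes without their roles. Not given in the sources used here are the strand setting, annotation and filters of the counting, and bases shared with a gene on the other strand therefore have uncertain counts. Per the labels' protocols, RNA was amplified and read as single reads of 100 bases. Amplified reads are not independent molecules, so counting intervals and floors cover counting error only.

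The counts went through edgeR 4.0.16 in R 4.3.3. Low counts were filtered with filterByExpr, given the group, TMM scaled the libraries, and genotype alone entered a quasi-likelihood F-test with Benjamini-Hochberg adjustment over 14700 genes and a threshold of 0.05. Each log2 fold change puts Eed cKO over Control, and CPM values are TMM-normalised. The 95% intervals use the SE and the degrees of freedom of that test. Alternatives were RLE and upper-quartile scaling, other filters on low counts, DESeq2 1.42.0, limma-voom (limma 3.58.1), a replicate block, robust dispersion and fits that leave out each library. Leaving out both libraries numbered 1 was added after seeing the data.

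GENCODE M21 on GRCm38, the assembly behind mm10, gave coordinates, exon lengths and shared bases; its use by the authors is not known. Of the members' transcript words of 100 bases, at most 0.0573% (Runx1) also occur in another gene. Promoter windows are from RefSeq on GRCm38.p6. The pipeline was tested on simulated data.

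The members and lists were chosen with earlier results of these data known. All 7 members were named, then every called gene of a list or else the 2 genes with the smallest p-values, then the 3 genes nearest to each called member in log2 CPM (prior count 2). Of these nearest genes, some are not reported here. Ctnnb1, Lef1, Gata3, Cd34, Lgr5, Hopx, Foxc1, Nfib, Tle1, Aes, Krt10, Krt15, Krt17, Krt25, Krt27, Krt71, Krt79 and Epcam were named outside that rule, after their values were seen.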

Additional observations from a re-analysis of the deposited data

How the results depend on the processing

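The direction of Trps1, Runx1, Nfatc1, Lhx2, Sox9 and Tcf7l2 held under all 15 alternatives, and Trps1 was called in each of them. The Tcf7l1 log2 fold change was 0.072 without Eed cKO 2, so its sign reversed there, and ran from -0.32 to 0.072 over the fits that leave out 1 library. The number of members called higher was 5 without a filter on low counts and ran from 1 to 3 when 1 library was left out. It was 1 in each of the fits without Eed cKO 3, Eed cKO 1 or Control 3. When 1 library was left out, log2 fold changes ran from 0.69 to 1.16 for Nfatc1, from 0.95 to 1.52 for Runx1 and from 0.88 to 1.65 for Lhx2. Lhx2 was called without a filter on low counts (log2 fold change 1.10), in DESeq2 (1.11) and in limma-voom (1.17), and Sox9 without a filter on low counts (0.61).

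Over all genes, DESeq2 called 764 higher and 270 lower, against 499 and 120 in the quasi-likelihood test. The higher count ran from 302 (without Eed cKO 3) to 456 when 1 library was left out, and was 323 without Control 3. The lower count ran from 35 (without Control 3) to 118, and was 44 without Eed cKO 3, 51 without Eed cKO 2 and 59 without Control 2, while it was 257 without a filter on low counts. The causes were not tested.

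With the replicate number as a block, 5 members were called higher, with log2 fold changes of 1.22 for Lhx2 and 0.66 for Sox9, and 269 genes were called lower in all. Of the other follicle stem and progenitor genes 6 were called higher with the block. Same-numbered libraries are not stated to be paired. Their deviations from the group means correlated at 0.23, 0.11 and -0.0014 for numbers 1, 2 and 3, and Eed cKO 3 correlated best with Control 2 (0.099).

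With 3 libraries a group, a member that misses the threshold is not shown to be unaltered, as the 95% intervals of Lhx2 and Sox9 show.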
